A study of Arabidopsis thaliana with 18 samples.

Results

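EpiHybrid 193 was set against the mean of its parents, epiRIL 193 and Col-Wt, in windows of 100 bp along 3 intervals of the Arabidopsis thaliana genome. Every second window was taken, so that windows did not overlap, and those with at least 10 measured cytosines in each of these lines were kept. This left 17399 windows, of 21944 every-second windows and 43887 windows in all. The levels come from bisulfite-treated DNA of the above-ground parts of rosette plants, taken 21 to 22 days after sowing; days had 16 h light and 8 h dark. The series holds 18 libraries from 9 lines, with 2 libraries for each of 4 epiHybrids, 4 epiRILs and Col-Wt, and the authors' table gives 1 level per line. No value below therefore has a replicate error, and no p-value is given. Windows and tracts of a line share the same pair of libraries and are not replicates.

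An epigenetic recombinant inbred line (epiRIL) has nearly the same DNA sequence as its wild type but has inherited chromosome stretches from a parent with reduced methylation. For the published lines of these numbers, that ancestor lacked the chromatin remodeller DDM1, on which the methylation of transposons depends. An epiHybrid is a cross of such a line, here with Columbia wild type (Col-Wt). In plants, cytosines are methylated in CG, CHG and CHH contexts. CG methylation is copied at replication, whereas methylation in the other contexts also relies on histone marks and on small RNAs, and small RNAs from one chromosome copy can direct methylation of the other. If each chromosome copy of a hybrid kept the state it was inherited with, the hybrid would read at the mean of its parents, called additive here. The deposited levels are not split by context, and which contexts they cover was not stated. Windows of 100 bp held up to 72 measured cytosines. The labels do not say how many plants went into a library, or whether paired libraries were grown apart.

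The first chromosome 3 interval spans positions 8937051 to 9698100 (5683 windows) and the second 22235451 to 23207500 (7973 windows). The chromosome 4 interval spans 11363351 to 11824750 (3743 windows), all in the TAIR10 build. A typical window rested on 35 cytosines in epiHybrid 193, on 35 in epiRIL 193 and on 34 in Col-Wt (medians). Before windows were dropped for few cytosines, 11.2% of them had under 10 in epiHybrid 193, with 12.7% for epiRIL 193 and 17.7% for Col-Wt. Read depth is unknown. In the 13765 windows with almost no methylation (a mean under 0.02 over the 9 lines), epiHybrid 193 read 0.00528, epiRIL 193 0.00536 and Col-Wt 0.00793. Col-Wt was the highest of all 9 lines there, so the hybrid stood 0.00136 under the mid-parent level where hardly any methylation was present.

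Almost all windows were additive. EpiHybrid 193 averaged 0.0354, epiRIL 193 0.0290 and Col-Wt 0.0411, and the hybrid differed from the mid-parent mean of 0.0350 by 0.000395 ± 0.0227 (SD over 17399 windows). In 17211 windows (98.9%) the hybrid was within 0.1 of the mid-parent level. It was above by 0.1 or more in 156 windows (0.897%) and below by 0.1 or more in 32 (0.184%), so that 83.0% of departures were above. Levels cannot fall under 0, so a window with a mid-parent level under 0.1 could only depart above. The windows nearest to the limit stood at 0.1001 inside and 0.0996 outside above, and at -0.103 inside and -0.0977 outside below. The number of departures depended on how many cytosines were asked for, which also changed the number of windows. With at least 20 in each line, 91 of 12472 windows were above and 12 below. With at least 5, 193 of 19089 windows were above and 56 below.

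**Figure D1:**
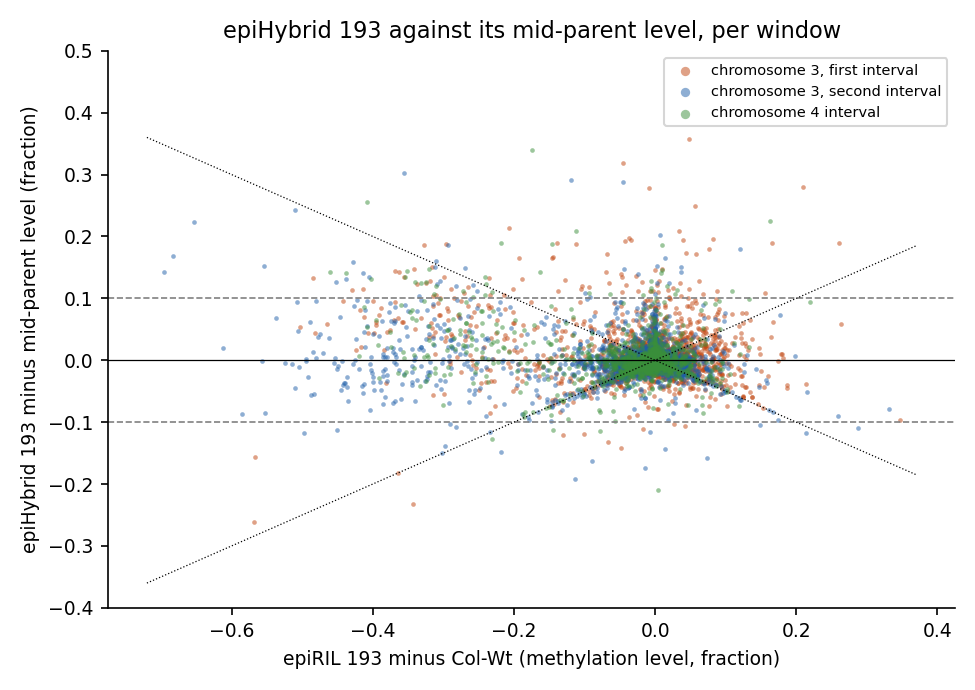
Each point is 1 of 17399 windows: the x axis gives epiRIL 193 minus Col-Wt and the y axis epiHybrid 193 minus the mid-parent level (both as fractions), coloured by interval. Dashed lines mark departures of 0.1 and dotted lines the levels of the parents, so points beyond the dotted lines lie outside both parents; most points sit near 0 on both axes, and the 459 windows at -0.2 or less on the x axis lie mostly above the zero line.

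Departures lay mostly in windows with some methylation. Of the 13424 windows with a mid-parent level under 0.02, 15 were above and 0 below, as none there could be below by 0.1. Between 0.1 and 0.2, 5.85% of 1094 windows were above and 0.731% below, and between 0.3 and 0.5, 8.19% of 354 windows were above and 3.67% below.

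In the 1189 windows with a Col-Wt level of at least 0.2, epiHybrid 193 averaged 0.289, epiRIL 193 0.203 and Col-Wt 0.336. The hybrid was 0.01998 ± 0.0652 (SD over windows) above the mid-parent level of 0.269, and above it by any amount in 60.6% of the windows. It was above by at least 0.1 in 112 of them (9.42%) and below in 28 (2.35%). The intervals differed in how much the epiRIL had lost. In the first chromosome 3 interval the hybrid held 97.4% and the epiRIL 80.8% of the Col-Wt level, in the second 72.5% and 37.4%, and on chromosome 4 84.1% and 53.3%. The mean difference from the mid-parent level was 0.0225 ± 0.0631 in the first chromosome 3 interval (575 windows), 0.0136 ± 0.0671 in the second (397 windows) and 0.0249 ± 0.0666 on chromosome 4 (217 windows), each with its SD over windows. Taking windows methylated at 0.1 or more in Col-Wt, the difference was 0.0107.

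The share of windows that departed, though not their number, was higher where epiRIL 193 had lost methylation than where the parents were alike. EpiRIL 193 was lower than Col-Wt by at least 0.2 in 459 windows (2.64%). In these, epiHybrid 193 averaged 0.237, epiRIL 193 0.0410 and Col-Wt 0.370, with a mid-parent level of 0.205. The hybrid was above it by at least 0.1 in 66 windows, or 14.4%, and below in 13, or 2.83%. Where the epiRIL was lower by 0.1 to 0.2, 5.75% of 261 windows were above and 1.53% below. The mean difference from the mid-parent level in those 261 windows was -0.00300, and the hybrid was above by any amount in 39.5%. Where the parents were within 0.1 of each other, 68 of 16573 windows were above (0.41%) and 12 below (0.0724%). In number these were close to the 66 and 13 of the windows lower by at least 0.2. Most windows with like parents are unmethylated and could only depart above. Among the 532 with both parents at 0.2 or more and within 0.1, 4.70% were above and 2.07% below, and the hybrid stood 0.0111 ± 0.0564 over the mid-parent level. That SD is the spread over single windows whose parents differed by less than 0.1, and it includes the measurement error of the lines.

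**Figure D2:**
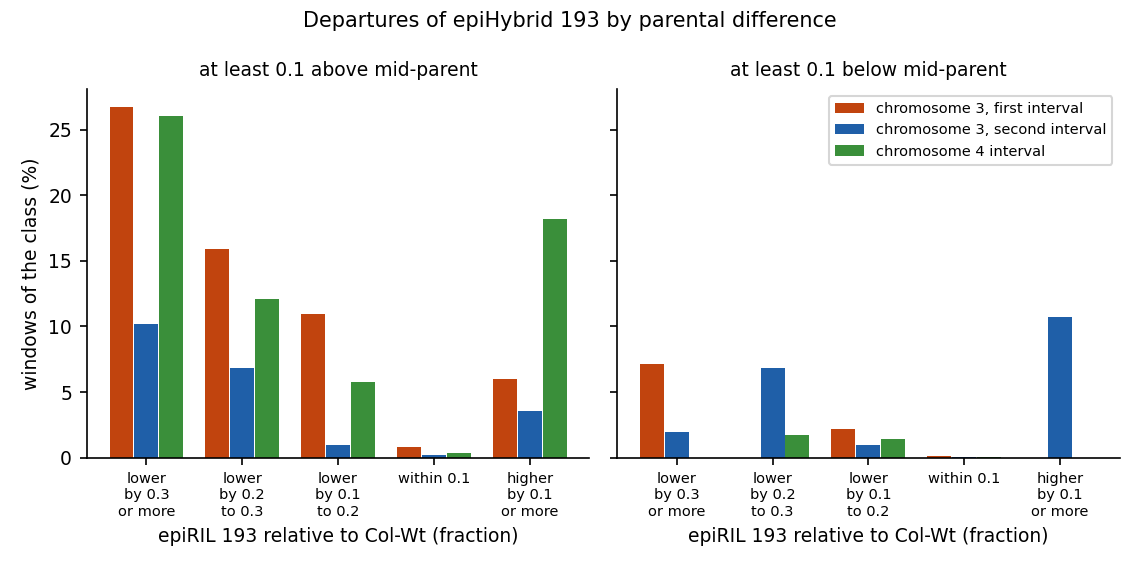
Bars give the percentage of windows at least 0.1 above (left) or below (right) the mid-parent level, by the difference of epiRIL 193 from Col-Wt (x axis, fraction) and by interval. Windows above reach 26.8 and 26.1% in the first chromosome 3 and the chromosome 4 interval where the epiRIL was lower by 0.3 or more, against 10.2% in the second chromosome 3 interval.

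The height of the hybrid between its parents can be given as a position, which is 0 if the hybrid equals Col-Wt, 0.5 if it equals the mid-parent level and 1 if it equals the epiRIL (summed epiHybrid minus Col-Wt over summed epiRIL minus Col-Wt). Over the 459 lost windows it was 0.403, with a median of 0.407 over single windows and quartiles of 0.262 and 0.535. The hybrid was above the mid-parent level by any amount in 312 of them (68.0%). It was at or over Col-Wt in 13 windows and at or under the epiRIL in 6. The position was 0.342 in 125 windows of the first chromosome 3 interval, 0.452 in 230 of the second and 0.352 in 104 on chromosome 4. Without the second interval it was 0.346. In the 261 windows where the epiRIL was lower by only 0.1 to 0.2, the position was 0.522. A window chosen for its own parental difference carries the error of both parents. In 391 windows chosen by the mean difference of the windows on either side the position was 0.398. The neighbours come from the same pooled libraries, so this choice cannot remove an error shared along a tract.

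Of the 459 lost windows, 367 (80.0%) fell in 11 lost tracts. These are runs of at least 5 windows methylated in Col-Wt in which epiRIL 193 held under 25% of the Col-Wt level. A lost window must have at least 0.2 in Col-Wt, as tract windows do, so part of this share follows from the definitions. Of the 1189 windows at 0.2 or more in Col-Wt, 384 lay in lost tracts. Another 421 lay in tracts where epiRIL 193 held 75% or more, and 37 in tracts between. Of the 11 lost tracts, 10 overlapped a pseudogene, against 11 of the 27 tracts that epiRIL 193 had kept and 1 of the 4 between. In the lost tracts epiHybrid 193 held 49.6 to 88.4% of the Col-Wt level (median 64.3%) and epiRIL 193 1.35 to 13.5% (median 3.78%). The mid-parent level there was 50.7 to 56.7% of Col-Wt. In 10 of 11 tracts the hybrid was above its mid-parent level. The differences ran from -0.00307 to 0.106, with a mean of 0.0392 ± 0.0337 (SD over tracts). The 92 lost windows outside these tracts had a position of 0.456, against 0.393 for those inside.

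**Figure D3:**
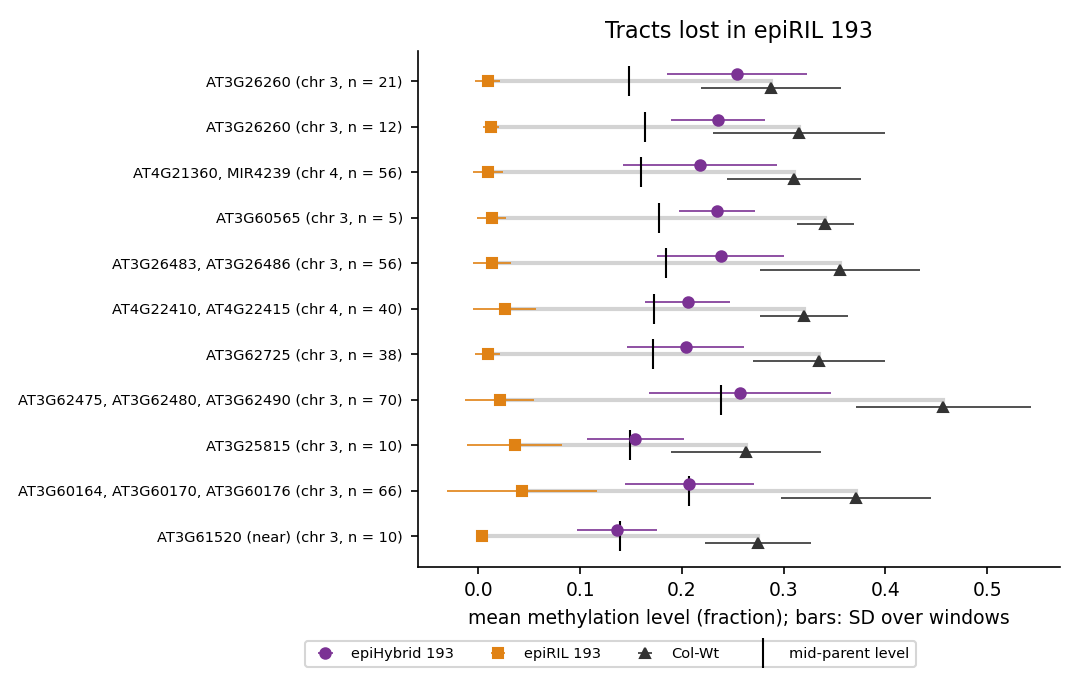
Mean methylation level (x axis, fraction) of epiHybrid 193, epiRIL 193 and Col-Wt in the 11 tracts lost in epiRIL 193, named by the genes they overlap or lie near, with n windows each; error bars are SD over windows and black ticks the mid-parent level. The hybrid lies right of or on the tick in all but the lowest tract, from 0.254 against 0.148 in the top one over AT3G26260 to 0.136 against 0.139 near AT3G61520.

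The hybrid came nearest to Col-Wt over the pseudogene AT3G26260. In the tract at 9615051 to 9617350 on chromosome 3, epiHybrid 193 read 0.254, epiRIL 193 0.00917 and Col-Wt 0.288 over 21 windows, a position of 0.119. The hybrid was above the mid-parent level in 20 of the 21 windows and by at least 0.1 in 11. In the neighbouring tract at 9613551 to 9614850, over the same pseudogene, the hybrid read 0.235, the epiRIL 0.0127 and Col-Wt 0.315, a position of 0.266, with 12 of 12 windows above. Together these tracts lie to one side of a boundary in epiRIL 193. From 9613551 to 9617550 its level was at most 0.0510 in each of 38 windows (mean 0.0101 ± 0.0106, SD over windows), and from 9617551 to 9625550, over the rest of AT3G26260 and over the pseudogene AT3G26265, it averaged 0.296 over 78 windows. EpiHybrid 193 read 0.234 ± 0.0709 on the lost side and 0.304 ± 0.0711 on the other, and Col-Wt 0.280 ± 0.0848 and 0.304 ± 0.0709. Both the hybrid and Col-Wt read lower on the lost side, the hybrid by more than Col-Wt and by less than the epiRIL.

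**Figure D4:**
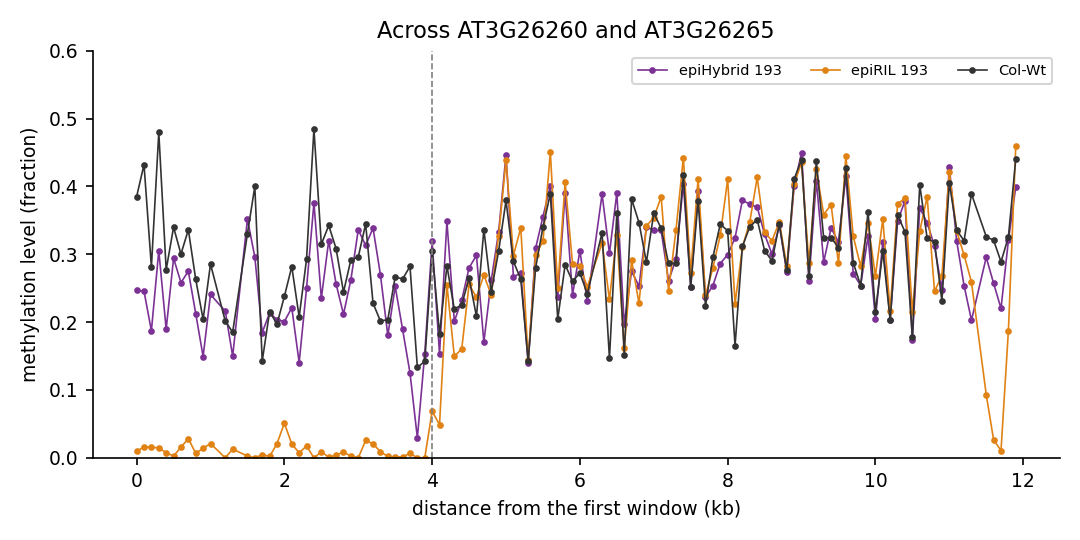
Methylation level (y axis, fraction) of epiHybrid 193, epiRIL 193 and Col-Wt in 116 windows, by distance from the first window (x axis, kb); the dashed line marks the boundary at which epiRIL 193 passes from lost to methylated. Left of it epiRIL 193 stays at or under 0.0510, while epiHybrid 193 is mostly nearer to Col-Wt than to epiRIL 193. Single windows vary, such as 0.125 in epiHybrid 193 against 0.282 in Col-Wt, 0.0294 against 0.133 and 0.339 against 0.228. EpiRIL 193 is still at 0.0689 and 0.0487 in the first windows right of the line. It then overlaps the other lines until a short dip to 0.0108 near the right end.

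The epiRIL also dipped near the right end of that stretch, reading 0.0931, 0.0263 and 0.0108 in the windows that start at 9625051, 9625151 and 9625251, where the hybrid read 0.296, 0.257 and 0.220 and Col-Wt 0.326, 0.321 and 0.289. In each of these windows, too, the hybrid was closer to the Col-Wt level than to that of the epiRIL.

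The same stretch was lost in epiRIL 232, whose hybrid read otherwise. On the lost side the position was 0.170 in line 193 and 0.572 in line 232 against the same Col-Wt column, with 0.125 in epiHybrid 232 and 0.00947 in epiRIL 232. On the other side, epiHybrid 232 averaged 0.112 and epiRIL 232 0.0129. Line 92 had kept the stretch and read over Col-Wt on the lost side, with 0.309 in epiHybrid 92 and 0.314 in epiRIL 92. The difference between lines 193 and 232 has 1 pooled value on each side and could not be tested.

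Over the longest lost tract of this interval, at 9692251 to 9697850 over the pseudogenes AT3G26483 and AT3G26486, the hybrid read 0.238, the epiRIL 0.0133 and Col-Wt 0.356 in 56 windows, of which 52 were above the mid-parent level. The position was 0.343, and it was 0.478 in the windows within 500 bp of the ends against 0.305 in the middle. The left end of this tract also held the region with the largest summed difference below the mid-parent level. In the pair of windows at 9692251 to 9692450 epiHybrid 193 read 0.022 and 0.131, with a mean of 0.0764 against 0.00174 in epiRIL 193 and 0.569 in Col-Wt. The median was 34 cytosines in each line there. The hybrid of line 232, which had also lost this tract, read 0.105 in the same windows. The fourth lost tract of the interval, at 9435551 to 9436650 over the pseudogene AT3G25815, was close to additive, with 0.154 in the hybrid, 0.0355 in the epiRIL and 0.263 in Col-Wt.

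In the second chromosome 3 interval the largest lost tracts lay at or near the mid-parent level. Over the pseudogenes AT3G62475, AT3G62480 and AT3G62490, at 23108851 to 23115850, the hybrid read 0.257, the epiRIL 0.0209 and Col-Wt 0.457 in 70 windows. The position was 0.459, and 34 of the 70 windows were above the mid-parent level. Along this tract the hybrid was flat, with 0.259, 0.250 and 0.261 in 3 successive parts of like size, and the position was 0.496, 0.411 and 0.464. Over AT3G60164, AT3G60170 (both pseudogenes) and the non-coding RNA gene AT3G60176, at 22235451 to 22242450, the hybrid read 0.207, the epiRIL 0.0427 and Col-Wt 0.371 in 66 windows, a position of 0.499. The last of 3 such parts of that tract, where the epiRIL kept 0.103, had a position of 0.621, against 0.456 and 0.451 in the parts before it.

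The other 3 lost tracts of this interval were shorter. Over the pseudogene AT3G62725, at 23203651 to 23207450, the hybrid read 0.204, the epiRIL 0.00905 and Col-Wt 0.335, a position of 0.403 over 38 windows. Over the pseudogene AT3G60565, at 22383851 to 22384350, it read 0.235, the epiRIL 0.0129 and Col-Wt 0.341, with 5 of 5 windows above the mid-parent level. Near AT3G61520, at 22766951 to 22767950, which overlaps no annotated gene, it read 0.136, the epiRIL 0.00371 and Col-Wt 0.275. That position of 0.511 was the only one past 0.5 among the 11 lost tracts.

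On chromosome 4 both lost tracts were above the mid-parent level. At 11363451 to 11369350, a stretch with MIR4239 (a microRNA gene) and AT4G21360 (a pseudogene), epiHybrid 193 read 0.217, epiRIL 193 0.00957 and Col-Wt 0.310 in 56 windows, of which 47 were above the mid-parent level and 15 by at least 0.1. At 11820551 to 11824750, over the protein-coding gene AT4G22410 and the pseudogene AT4G22415, the hybrid read 0.206, the epiRIL 0.0259 and Col-Wt 0.320, with 31 of 40 windows above. The positions were 0.309 and 0.388. Lines 150 and 232 had kept both tracts. Their epiRILs read 0.371 and 0.371 in the first tract and 0.351 and 0.357 in the second, all higher than Col-Wt.

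How far the hybrid stands above its mid-parent level depends on the single Col-Wt column. In the 9 lost tracts on chromosome 3, epiRIL 92, which had kept them, read higher than Col-Wt in 8, and epiHybrid 92 in 9. With the mean of Col-Wt and epiRIL 92 as the wild-type level of these 9 tracts, the positions ran from 0.152 to 0.552 and were under 0.5 in 6 of them, against 8 with Col-Wt alone. The tracts over AT3G25815 (0.546), over AT3G60164 to AT3G60176 (0.509) and near AT3G61520 (0.552) then stood past the mid-parent level. Those over AT3G26260 kept positions of 0.323 and 0.152 and that over AT3G26483 0.357. EpiRIL 92 had itself lost methylation on chromosome 4 and was not used there.

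In the 27 tracts that epiRIL 193 had kept, the hybrid read close to both parents. It was nonetheless above the mid-parent level in 20 of 27, and over both parents in 10. The mean difference from the mid-parent level was 0.0146 ± 0.0196 (SD over tracts), so a lean above was not confined to lost tracts. Of the 27, 18 lay in the first chromosome 3 interval. There the hybrid averaged 0.332, the epiRIL 0.334 and Col-Wt 0.310 over 323 windows, and the epiRIL was higher than Col-Wt in 14 of 18 tracts, as was the hybrid in 14 of 18. EpiRIL 92 averaged 0.338 in the same windows. In the longest kept tract, the part of AT3G26260 and AT3G26265 right of the boundary that was methylated in Col-Wt (72 windows), the levels were 0.311, 0.306 and 0.316 in the hybrid, the epiRIL and Col-Wt. Over the pseudogene AT3G25485, at 9236851 to 9241150, the hybrid read 0.356, the epiRIL 0.347 and Col-Wt 0.313. Over the pseudogenes AT3G24675 and AT3G24680, at 9012951 to 9017150, the levels were 0.321, 0.348 and 0.296. Over the kept tracts of all intervals, 14 of 421 windows were above the mid-parent level by at least 0.1 (3.33%) and 6 below (1.43%), against 56 (14.6%) and 6 (1.56%) of the 384 windows in lost tracts.

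**Figure D5:**
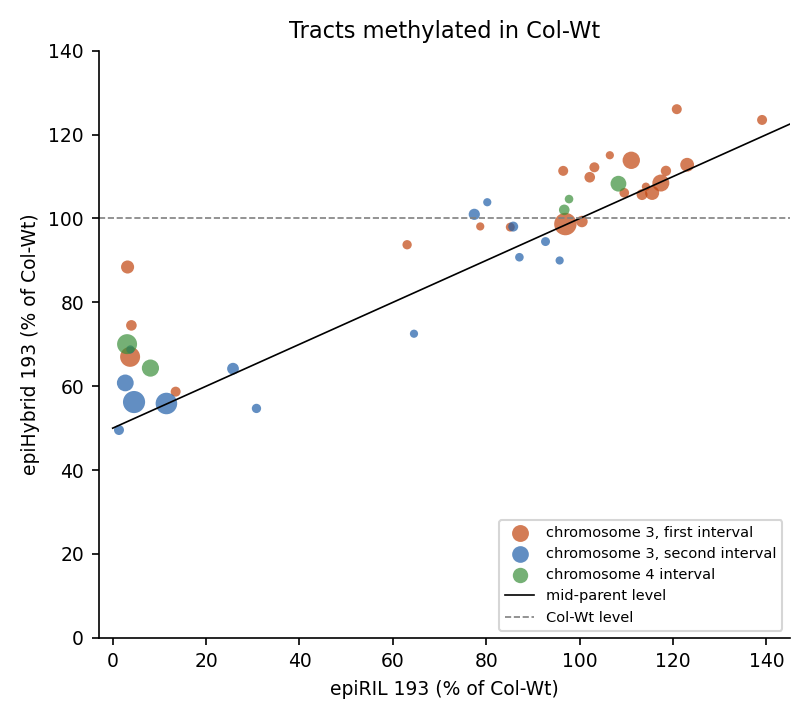
Each circle is 1 of 42 tracts methylated in Col-Wt, with area growing with its number of windows: the x axis gives epiRIL 193 and the y axis epiHybrid 193, both as a percentage of Col-Wt, coloured by interval. The solid line is the mid-parent level and the dashed line the Col-Wt level; lost tracts (left) reach 49.6 to 88.4% in the hybrid, and kept tracts (right) 90.0 to 126.1%.

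Only 4 tracts were partly methylated in epiRIL 193, and 2 of them were above the mid-parent level. Over AT3G60565 at 22385551 to 22387150 the hybrid read 0.235, the epiRIL 0.0945 and Col-Wt 0.367 (16 windows). At 9558151 to 9559150, near the pseudogene AT3G26134, the levels were 0.420, 0.282 and 0.448 (8 windows), with 4 windows above by at least 0.1 and 1 below. At 23117351 to 23118150, near the long non-coding RNA gene AT3G09775, the hybrid read 0.232, under the mid-parent level of 0.278 from 0.131 in the epiRIL and 0.424 in Col-Wt. Of its 8 windows, 1 was above the mid-parent level.

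By annotation, pseudogenes held 1153 windows (6.63%) and no-gene stretches 4034 (23.2%). Of the 156 windows above the mid-parent level, 47 lay over pseudogenes (4.08% of theirs), 83 in windows with no gene (2.06%), 22 over protein-coding genes (0.185%) and 4 over other genes (1.38%). In windows methylated in Col-Wt the order was another: 15.9% of 371 no-gene windows were above, 7.52% of 572 over pseudogenes and 4.0% of 200 over protein-coding genes. The no-gene windows were also less covered, with a median of 28 cytosines in the least covered line against 40 over pseudogenes, and the part of this in the difference was not tested. Protein-coding windows methylated in Col-Wt had mostly kept their level, with 0.257 in the hybrid, 0.237 in the epiRIL and 0.273 in Col-Wt, and the hybrid was 0.00227 ± 0.0520 above the mid-parent level. In lost windows the position was 0.378 over pseudogenes (296 windows), 0.438 without a gene (135 windows), 0.524 over protein-coding genes (11 windows) and 0.501 over other genes (17 windows).

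The regions above the mid-parent level were short. The 156 windows formed 104 regions, 72 of them of 1 window and 11 of at least 3. The longest, of 9 windows at 9615951 to 9617150, lay within the AT3G26260 tract and read 0.303 in the hybrid, 0.00711 in the epiRIL and 0.307 in Col-Wt. The next were on chromosome 4 in the AT4G21360 tract. At 11368151 to 11368750, near MIR4239, 5 windows read 0.331 in the hybrid, 0.0136 in the epiRIL and 0.384 in Col-Wt. At 11363551 to 11364050, 4 windows read 0.344, 0.00600 and 0.361. The 8 regions of 3 windows differed in kind, and the 2 with the largest summed difference had parents of like level. At 9327651 to 9327950, with no gene within 1000 bp, the hybrid read 0.210, 0.425 and 0.339 in successive windows, with means of 0.325 in the hybrid, 0.128 in the epiRIL and 0.138 in Col-Wt. At 9335251 to 9335550, near SK15, the means were 0.629, 0.425 and 0.463, and the hybrid itself varied between 0.156 and 0.912. The parents had medians of only 13 to 16 cytosines in both. Others of the 8 lay where epiRIL 193 had lost methylation, such as that at 9615051 to 9615450 over AT3G26260, with 0.250 in the hybrid, 0.00307 in the epiRIL and 0.230 in Col-Wt.

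Windows beyond both parents were fewer. EpiHybrid 193 was over both by at least 0.1 in 60 windows (0.345%) and under both in 9 (0.0517%). In 48 of the 60 the parents were within 0.1 of each other. These windows were thinly covered: 34 of the 60 had under 20 cytosines in the least covered line, against 28.3% of all windows, and 4 had 40 or more. Over windows with a mid-parent level of at least 0.1, the share over both parents was 6.47% at 10 to 19 cytosines, 4.76% at 20 to 29, 0.844% at 30 to 39 and 0.243% at 40 or more. In 17 of the 60, epiHybrid 193 was also at least 0.1 over every other line.

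Of the 50 regions over both parents, 40 were of 1 window and 10 of 2. Of the 10, only that over ATG6, which encodes an autophagy protein, was near 0 in both parents. At 22842051 to 22842350 on chromosome 3 the hybrid read 0.172 and 0.154 in a pair of windows, against means of 0.00861 for epiRIL 193 and 0 for Col-Wt. The other 6 lines read up to 0.0184. Medians of 38.5, 30.5 and 23.5 cytosines stood behind the hybrid, the epiRIL and Col-Wt. Among the 10, the largest difference was at 22790351 to 22790550, with no gene within 1000 bp, where the hybrid read 0.724, the epiRIL 0.394 and Col-Wt 0.476. There the other 6 lines read 0.509 to 0.649, higher than both parents as well. At 9240951 to 9241150, near AT3G25485, the hybrid read 0.485, the epiRIL 0.299 and Col-Wt 0.229, and epiHybrid 92 read 0.486. The other regions of 2 windows lay near SK15, AT3G25210, AT3G24610 and TBL6 (a member of the trichome birefringence-like family), over the protein-coding gene AT3G26140, and at 9327751 to 9327950 and 11696251 to 11696450 with no gene within 1000 bp. Their hybrid levels were 0.382 to 0.628 and their differences from the mid-parent level 0.147 to 0.226.

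Below the mid-parent level, 29 regions held the 32 windows, 26 of them 1 window each. Besides the pair at the end of the AT3G26483 tract, pairs lay at 22241851 to 22242150 near AT3G60180, with 0.206 in the hybrid, 0.293 in the epiRIL and 0.459 in Col-Wt, and at 11526451 to 11526650 near GA3OX3, a gene of gibberellin synthesis. At GA3OX3 the hybrid read 0, the epiRIL 0.0262 and Col-Wt 0.214. The other 6 lines read at most 0.0347 there, so Col-Wt stood alone. It did so, by at least 0.1 over every other line, in 7 of the 32 windows below the mid-parent level. The region of 1 window furthest below, at 9384351 to 9384450, read 0.316 in the hybrid, 0.377 in the epiRIL and 0.720 in Col-Wt, on 18 to 22 cytosines. The other 6 lines read 0.228 to 0.413, so here too Col-Wt stood alone. Another region of 1 window, at 11756951 to 11757050 near AT4G07055, read 0.672, 0.884 and 0.880 on 23, 12 and 12 cytosines. All 9 regions under both parents were single windows.

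Gains of epiRIL 193 over Col-Wt were rarer than losses: 106 windows were higher by at least 0.1 (0.609%) and 11 of these by at least 0.2. In the 106, the hybrid averaged 0.190, the epiRIL 0.265 and Col-Wt 0.120, a position of 0.482 with 7 windows above and 3 below the mid-parent level. The longest gained region, of 8 windows at 9011351 to 9012250 over the pseudogene AT3G24675, was additive, with 0.243 in the hybrid, 0.312 in the epiRIL and 0.172 in Col-Wt. EpiRIL 92 also read over Col-Wt there, at 0.254. Near LHCA2, a light-harvesting antenna gene, 4 windows at 22747851 to 22748250 read 0.148 in the hybrid, 0.341 in the epiRIL and 0.127 in Col-Wt. The hybrid was near Col-Wt there, on medians of 13 to 15.5 cytosines. Over AT3G25727, 3 windows at 9393751 to 9394150 read 0.143, 0.195 and 0.0407. By interval the position in gained windows was 0.539 in the first chromosome 3 interval (67 windows), 0.267 in the second (28) and 0.780 on chromosome 4 (11). The last 2 of these values rest on few windows. Gained windows, like lost ones, were chosen for their own parental difference and carry the error of both parents. No choice by neighbours was made for them.

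The same rule gave shares of windows above and below of the same order in the other epiHybrids, which share the Col-Wt column. Windows above were 0.897% in epiHybrid 193, 0.796% in epiHybrid 92, 0.927% in epiHybrid 150 and 0.673% in epiHybrid 232. Windows below were 0.184% in epiHybrid 193, 0.188% in epiHybrid 92, 0.218% in epiHybrid 150 and 0.334% in epiHybrid 232. The position in windows lost by each line's own epiRIL was 0.403 in line 193, 0.319 in line 92 (64 windows), 0.336 in line 150 (399 windows) and 0.486 in line 232 (603 windows). With neighbours choosing the windows, the position was 0.398 in line 193, 0.0696 in line 92 (24 windows), 0.318 in line 150 and 0.480 in line 232. In the AT3G62475 to AT3G62490 tract, lost in epiRILs 193, 150 and 232, the positions were 0.459 in line 193, 0.406 in line 150 and 0.568 in line 232. With 1 pooled value per line, no difference between lines was tested.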

How the data were processed

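Levels deposited by the authors are fractions between 0 and 1 for windows of 100 bp, each with its count of cytosines. Per the submitters' processing notes, cutadapt, BS-Seeker2, Bowtie2 and TAIR10 were used, with no versions. The 2 libraries of a line share 1 column per the file headers; the way of pooling was not stated. The deposited difference score of epiHybrid 193 from its mid-parent level equals epiHybrid 193 minus the mean of epiRIL 193 and Col-Wt within 5.3e-16 in 39768 windows. That Col-Wt was the second parent rests on this and on knowledge of the study, since the labels do not give it. The other 11 deposited columns of mid-parent values, differences and log2 ratios were not used.

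Windows starting at multiples of 100 bp from an interval's start, with at least 10 cytosines in the 3 lines, were kept. A departure was 0.1 or more from the mid-parent level, a loss 0.2 or more between parents, and a methylated window 0.2 or more in Col-Wt. Windows at most 100 bp apart were joined. Tracts held at least 5 windows and were lost under 25%, kept at 75% or more of Col-Wt and partly methylated between. The text names the 5 longest regions above and below (ties by summed difference), regions of 2 or more windows beyond both parents, all lost tracts and the 3 longest partly methylated and kept tracts. The gained regions, the boundary in AT3G26260, the region at 9615051 and the window near TRM34 were named after their values were seen. Members, limits and lists were chosen with earlier results of these data known.

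Genes were matched by position to RefSeq TAIR10.1. Cytosine number correlated with protein-coding overlap over 21944 windows by 0.289 unshifted, and by at most 0.268 with genes moved 250 bp. Transposable elements were not annotated. Computations used Python 3.11.15, pandas 2.3.3 and numpy 2.4.6, and were tested on simulated data. No test was made, as no line has replicate values. Sequences were not used here.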

Additional observations from a re-analysis of the deposited data

Results flagged for a closer look

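Among the 4 epiHybrids, the share of departures lying above the mid-parent level was 83.0% in epiHybrid 193, 80.9% in epiHybrid 92 and 81.0% in epiHybrid 150, and 66.9% in epiHybrid 232, which stood far from the others. A line can be singled out by chance, and 6 quantities were looked at. How often this happens was not tested, as the lines share the Col-Wt column and have 1 pooled value each. The value of epiHybrid 193 itself was not singled out in any of the 6 quantities.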

How the results depend on the processing

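The limits set the counts. At a departure of 0.05, 483 windows were above and 191 below (71.7% above), at 0.15, 48 and 10, and at 0.2, 17 and 3. With at least 5 cytosines 56 of 19089 windows were below. With at least 20, 91 of 12472 were above and 12 below (88.3% above). With no minimum 90 of 19869 were below (70.9% above). Without the first chromosome 3 interval 74 were above and 21 below, and 6 of 7 lost tracts were above the mid-parent level. Without the second, 15 were below (88.9% above), the position was 0.346 and 6 of 6 lost tracts were above. With epiRIL 92 averaged into the wild type on chromosome 3, 5 of 8 lost tracts were above, against 8 of 9 with Col-Wt alone in the same windows, a comparison chosen after seeing the data. With Col-Wt methylated at 0.1, the mean difference was 0.0107. Left-out intervals and stricter limits hold fewer windows by construction; for the other changes the cause was not tested. In all settings tried, more departures were above than below, though windows with a mid-parent level near 0 can only depart above. The mean difference stayed above 0 (0.0107 to 0.0232) and the position in lost windows under 0.5 (0.346 to 0.436). Taken alone, windows in which the epiRIL was lower by 0.1 to 0.2 had a position of 0.522. No paired analysis was possible because the deposited columns pool both libraries of a line, and for the same reason no replicate could be left out. The number of cytosines limits single windows: at mid-parent levels of 0.1 or more, the SD of the difference was 0.0857 at 10 to 19 cytosines and 0.0351 at 40 or more.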

Other observations

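A single line stood at least 0.1 over all 8 others in more windows for Col-Wt (47 of 17399) than for epiHybrid 193 (17) or epiRIL 193 (14). EpiHybrid 193 stood at least 0.1 under all others in 0 windows. One window that rests on Col-Wt alone lies at 8987151 to 8987250, near TRM34, where epiHybrid 193 read 0, epiRIL 193 0 and Col-Wt 0.364 on 11 cytosines, and at most 0.00833 in the other 6 lines.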
